A study of Rattus norvegicus with 80 samples.

Results

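A set of 36 rat genes separated the IF and PS lines from wildtype and from the IFPS line in 2 kinds of cultured mammary cell. In mammary epithelial cells (MECs) and in mammary fibroblasts alike, the 6 libraries of IF and PS lay wholly above or wholly below the 6 libraries of wildtype and IFPS. The direction had to be the same in both cell types, and the mean level had to be at least 1 CPM in each. CPM is the count of a gene divided by the total of its library, times 1000000. Of 32883 identifiers in the table, 11787 had that mean level, and 36 of these met the rule, 12 higher and 24 lower in IF and PS. The genes were chosen by their CPM levels in MECs and fibroblasts, so these values are given as a description with no test. The libraries of adipocytes, whole pads and tumors took no part in the choice and were tested.

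RNA sequencing gave counts for 80 rat libraries. Wildtype rats and 3 lines with mutations of Nf1, named IF, PS and IFPS in the labels, each gave 3 libraries of MECs, 3 of fibroblasts and 3 of adipocytes. Whole mammary pads came from 6 wildtype, 6 IFPS, 6 PS and 3 IF samples, and tumors from 9 IFPS, 9 PS and 5 IF samples. The labels do not spell out the alleles of the lines, and give neither the age of the rats nor whether libraries came from separate animals, so p-values measure only the spread between these libraries. The extraction protocol calls the MECs and fibroblasts cultured and the adipocytes mature, while the series text calls the normal cell types flow sorted. Titles carry running numbers, 1 to 12 within every normal tissue and 13 to 21 on 9 further pads, none of them IF, and what this second set of numbers marks is not stated. Nor do the labels say whether a number recurring across tissues marks one animal. If it does, the adipocytes and the pads numbered 1 to 12 came from the same animals as the MECs and fibroblasts that chose the genes, and are not independent of them. ENSRNOG00000006365, one of the genes described here, had its lowest IF level at number 7 in MECs, fibroblasts and pads. In IF adipocytes the lowest was at number 9. Among PS libraries 10, 11 and 12 its highest level was at number 12 in all of these tissues. ENSRNOG00000012067, another of these genes, had its lowest IF level at number 7 in MECs, 9 in fibroblasts and pads, and 8 in adipocytes. Among PS libraries 10, 11 and 12 its highest was at number 12 in the cell types and 10 in pads. Whether a number marks one animal was not tested.

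Nf1 encodes neurofibromin, which speeds the return of Ras to its inactive state and so limits signaling through the ERK kinases. In the mammary gland, epithelial cells form the ducts, fibroblasts lay down the collagen-rich matrix around them, and adipocytes store the fat in which the ducts grow. The table gives Ensembl identifiers, and 0 of them could be matched to a symbol. The roles of the genes, their sequences, the level of Nf1 and the markers that would check each cell type were therefore not analysed here. The higher genes are numbered 1 to 12 and the lower genes 1 to 24 by the smaller of their 2 differences, so that number 1 separated most in the cell type where it separated least. Identifiers are printed for 2 genes of each direction.

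Total counts per library ran from 17.3e6 to 37.3e6. Depth differed between lines in the cells that chose the genes. The deepest fibroblast libraries were those of PS (34.6e6 to 37.3e6, against 24.4e6 to 32.0e6 in the remaining lines), and IF and IFPS MECs (21.3e6 to 24.6e6) were shallower than wildtype and PS MECs (27.1e6 to 31.6e6). One set of libraries stood apart for these genes: the 3 wildtype pads numbered 13 to 21 had levels of the leading members near those of IF and PS pads, against their label as the other wildtype libraries show it, and the 3 PS pads of that set were mixed. Whether the line labels of these 6 pads are right was not tested, and the comparisons of wildtype and PS pads between sets rest on them. Results in pads are given with and without that second set.

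ENSRNOG00000012067 was the first of the higher genes by the smaller of its 2 differences. In MECs it was at 15.2, 12.3 and 16.2 CPM in wildtype, 16.6, 16.5 and 15.6 in IFPS, 133, 163 and 152 in IF, and 165, 139 and 171 in PS. The lowest IF or PS library was thus several times above the highest of the others. In fibroblasts the levels were 6.53, 5.64 and 10.2 CPM in wildtype, 12.4, 15.4 and 9.63 in IFPS, 74.0, 98.6 and 65.1 in IF, and 73.9, 66.8 and 75.9 in PS. IF and PS overlapped each other in both cell types. The difference between the mean of IF and PS and the mean of wildtype and IFPS was 3.28 in MECs and 2.93 in fibroblasts, on the scale of log2(CPM + 0.5), which is used for all differences in these 2 cell types.

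ENSRNOG00000006365, the second of the higher genes, was close to silent in control MECs. It was at 0.0658, 0.236 and 0.0948 CPM in wildtype MECs, 0.282, 0.0455 and 0.0821 in IFPS, 6.82, 14.2 and 14.1 in IF, and 6.69, 6.65 and 14.9 in PS. In fibroblasts the controls were higher, at 1.52, 1.05 and 1.42 CPM in wildtype and 1.5, 2.06 and 1.41 in IFPS, against 8.70, 16.2 and 18.3 in IF and 4.83, 4.64 and 10.4 in PS. Wildtype and IFPS overlapped, and so did IF and PS. The difference was 4.04 in MECs and 2.31 in fibroblasts.

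The leading lower genes separated far less. ENSRNOG00000058132 was at 9.24, 8.56 and 9.74 CPM in wildtype MECs and 9.68, 11.1 and 9.35 in IFPS, against 5.50, 6.68 and 7.38 in IF and 4.25, 6.76 and 3.88 in PS. In fibroblasts it was at 4.47, 6.05 and 6.32 in wildtype, 6.51, 7.03 and 6.23 in IFPS, 3.91, 3.21 and 3.44 in IF, and 0.868, 2.11 and 1.34 in PS. In fibroblasts every PS library lay below every IF library, which was not so in MECs. Its difference was -0.73 in MECs and -1.26 in fibroblasts.

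ENSRNOG00000024335, the second of the lower genes, kept a narrow range. Its MEC levels were 19.9, 23.6 and 19.9 CPM in wildtype, 23.1, 22.8 and 21.9 in IFPS, 17.1, 14.2 and 13.8 in IF, and 14.9, 16.8 and 16.4 in PS. Its fibroblast levels were 19.5, 20.2 and 22.4 CPM in wildtype, 18.6, 21.9 and 18.5 in IFPS, 14.6, 13.8 and 13.5 in IF, and 13.9, 10.6 and 12 in PS. The difference was -0.48 and -0.61, and its wildtype levels overlapped between the 2 cell types.

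**Figure D1:**
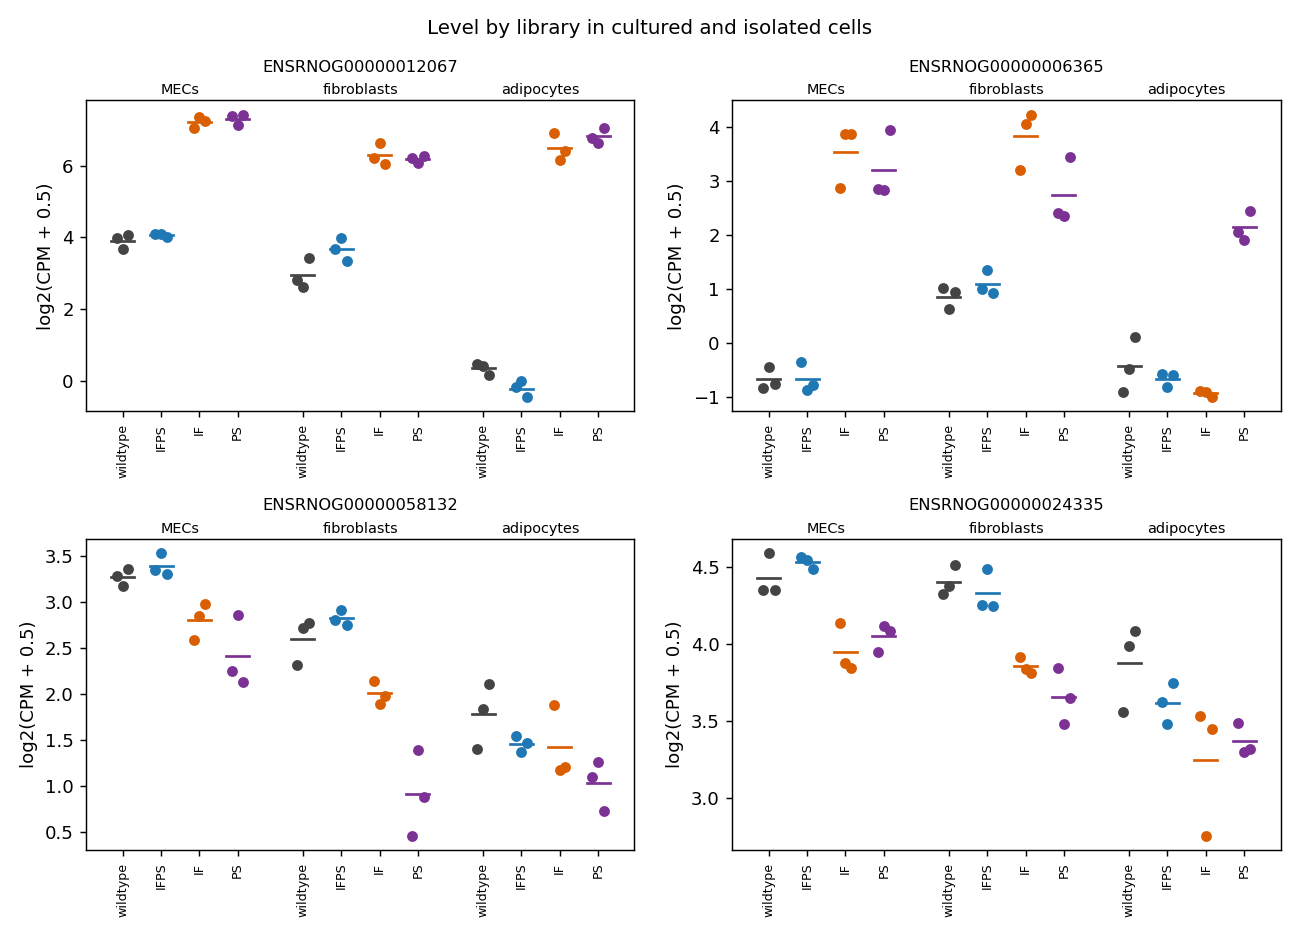
Level of the 4 printed genes in each library of MECs, fibroblasts and adipocytes, as log2(CPM + 0.5) on the vertical axis, by line on the horizontal axis; points are libraries and bars the mean of 3. The higher genes stand apart in IF and PS MECs and fibroblasts, and in adipocytes the second higher gene stands apart in PS (3.28 to 4.94 CPM) and is at or under 0.0388 CPM in IF.

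Most of the other members moved little. Among the 12 higher genes, 2 differed by over 2-fold in MECs and 3 in fibroblasts, the third being higher member 5, with a difference of 1.32 in fibroblasts and 0.62 in MECs. Higher members 3 to 12 had differences from 0.15 to 0.71 in MECs. The median over all 12 was 0.49 in MECs and 0.66 in fibroblasts. Among the 24 lower genes, 0 differed by over 2-fold in MECs and 3 in fibroblasts. These 3 were lower members 1, 3 and 8. The lower genes' differences ran from -0.73 to -0.08 in MECs and from -1.26 to -0.16 in fibroblasts, with medians of -0.21 and -0.62. Over all 11787 genes the median was 0.01 in MECs and -0.08 in fibroblasts.

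The 2 cell types did not contribute equally. The difference was larger in fibroblasts than in MECs for 24 of 24 lower genes and for 8 of 12 higher genes. The same share over all genes was not computed. With totals scaled by the TMM factors of edgeR the order turned for lower members 4 (-0.353 in MECs, -0.330 in fibroblasts), 9 (-0.265, -0.204) and 20 (-0.145, -0.085). It turned the other way for higher member 11 (0.270, 0.282). By the ratio of the 2 differences lower member 22 was the most uneven, with -0.11 in MECs and -0.96 in fibroblasts. Its MEC libraries ranged from 36.8 to 40.7 CPM in IF and PS and from 41.4 to 43.5 CPM in wildtype and IFPS, and its fibroblast libraries from 13.8 to 17.6 and from 23.5 to 37.3 CPM. Libraries without overlap were also commoner among all genes in fibroblasts. There, 3.78% of the 11787 genes were higher and 10.4% lower in IF and PS without overlap, against 1.07% and 0.781% in MECs. Both conditions in the same direction held for 0.102% (higher) and 0.204% (lower), which are the 36 members, and 5 genes lacked overlap in both cell types in opposite directions.

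By the values that chose the genes, IFPS was not simply equal to wildtype, and this is a description. In fibroblasts 23 of 24 lower genes had a higher mean in IFPS than in wildtype, with a median difference of 0.24, so that IFPS lay on the far side of wildtype from IF and PS. Over all genes that median was 0.06. The share of all genes with a higher mean in IFPS was not computed, so 23 of 24 has no background beside it. Lower member 3 showed the widest such gap: 24.4 to 34.5 CPM in IFPS fibroblasts, 12.8 to 22.5 in wildtype, 8.69 to 11.9 in IF and 7.92 to 11.2 in PS. In MECs the lower genes' median difference between IFPS and wildtype was -0.004, with 12 of 24 higher in IFPS. The higher genes gave 0.11 in MECs and -0.06 in fibroblasts. Relative to wildtype alone, the lower genes' medians in fibroblasts were -0.45 in IF and -0.51 in PS.

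Many members lay close to the limits of the rule. The smallest gaps between the groups were 0.0015 for lower member 9 and 0.0033 for higher member 12, both in fibroblasts, on the log2 scale, and the nearest genes that failed had gaps of -0.0016 and -0.003 in MECs, which is an overlap. The mean level nearest the limit of 1 CPM was 1.69 CPM, for higher member 5 in MECs, and the nearest genes outside it had 0.750 CPM in MECs or 0.385 CPM in fibroblasts. With totals scaled by the TMM factors of edgeR, 45 genes met the rule, among them 27 of the 36 (11 of 12 higher and 16 of 24 lower), and all 36 kept their direction. The genes lost were higher member 8 and lower members 9, 14, 18, 19, 20, 21, 23 and 24. Leaving out 1 library of MECs or fibroblasts can only loosen the condition of no overlap, and gave 37 to 73 genes. The mean level was computed again without that library. The count rose by over 1.5 times without wildtype MEC replicate 2 (73), IFPS MEC replicate 1 (61), PS MEC replicate 1 (59), wildtype fibroblast replicate 1 (59) or IF MEC replicate 3 (55).

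Adipocytes were the first data that the rule had not used. In PS adipocytes 3 of 36 members passed the test in their own direction and 0 in the opposite one. They were both printed higher genes and lower member 7. ENSRNOG00000006365 passed the low-count filter in adipocytes through its PS libraries alone, so its call is a description. Against the mean of wildtype and IFPS, edgeR's quasi-likelihood test called 17 of 14304 genes at an adjusted p under 0.05, 0.0839% of them higher and 0.035% lower in PS. By sign alone, 10 of 12 higher and 16 of 24 lower genes went their own way, with medians of 0.20 and -0.07 and a median over all genes of -0.006.

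ENSRNOG00000012067 changed most. It was at 0.884, 0.833 and 0.608 CPM in wildtype adipocytes, 0.378, 0.484 and 0.225 in IFPS, 120, 70.2 and 83.5 in IF, and 108, 98.9 and 131 in PS. The group means were 113 ± 16.6 CPM in PS, 91.3 ± 26.0 in IF, 0.775 ± 0.147 in wildtype and 0.363 ± 0.130 in IFPS (SD, n = 3 each). All 6 IF and PS libraries lay far above the other 6. The log2 fold change was 7.79 ± 0.20 (SE, edgeR adjusted p = 7.00e-09) in PS and 7.47 ± 0.20 (adjusted p = 6.07e-09) in IF, against the same wildtype and IFPS libraries. PS and IF did not pass the test against each other (0.33, adjusted p = 0.152). Every call against wildtype and IFPS held when each of the 12 libraries was left out in turn, and without IF adipocyte replicate 1 PS passed as higher than IF (0.52, adjusted p = 0.0255).

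ENSRNOG00000006365 separated PS from IF in adipocytes. Its levels were 0.0340, 0.217 and 0.576 CPM in wildtype, 0.172, 0.0692 and 0.161 in IFPS, 3.68, 3.28 and 4.94 in PS, and 0.0388, 0.0351 and 0 in IF. The 3 PS libraries lay above all others, and the IF libraries lay among or below the lowest controls. Against wildtype and IFPS the fitted log2 fold change was 4.4 ± 0.48 (SE, edgeR adjusted p = 0.00899) in PS, and the call was lost without PS adipocyte replicate 3 (adjusted p = 0.0599).

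In IF adipocytes the same gene was called in the opposite direction, at -2.76 ± 0.95 (adjusted p = 0.0278), on very few counts. The 3 IF libraries held 2 counts in all, against 37 in the 6 controls, a CPM ratio of 0.113 with an exact 95% interval of 0.0132 to 0.438 that covers counting error only. That call was lost without IF adipocyte replicate 1 or 3 (adjusted p up to 0.102). PS had 336 counts, 168 times the level of IF (interval 46.0 to 1389), and the test of PS against IF gave 7.16 ± 0.82 (adjusted p = 9.62e-05), which held without each library in turn. Fitted values at such low counts depend on the prior count. The gene passed the low-count filter through its PS libraries alone and had to be high in PS to be tested. All its calls in adipocytes are therefore a description.

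Lower member 7 was the only lower gene called in PS adipocytes. It was at 7.59, 8.18 and 9.18 CPM in PS, 7.63, 8.27 and 8.51 in IF, 11.8, 15.1 and 16.3 in wildtype, and 13, 13.4 and 14.2 in IFPS, each from low to high. All 6 IF and PS libraries lay below all 6 others, as in MECs and fibroblasts. The log2 fold change was -0.67 ± 0.10 (edgeR adjusted p = 0.0332) in PS and -0.72 ± 0.10 (adjusted p = 0.000182) in IF. Without PS adipocyte replicate 3 only 1 member was called in PS adipocytes, and DESeq2 called 5. The share of all genes called is not given here for either fit.

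IF adipocytes differed from wildtype and IFPS in most genes: 30.7% of the 14304 were called higher and 26.8% lower. Against that background 6 of 12 higher members were called higher and 1 lower, and 11 of 24 lower members were called lower and 2 higher. The medians were 0.24 and -0.32, and 0.004 over all genes. Higher member 4 was the clearest case of a gene that moved in IF alone among adipocytes. It was at 2.38, 6.81 and 8.35 CPM in IF, 0.287, 0.386 and 0.576 in PS, 0.476, 1.09 and 1.23 in wildtype, and 0.344, 0.354 and 0.449 in IFPS. All 3 IF libraries lay above the other 9 (3.33 ± 0.36, edgeR adjusted p = 4.11e-05), and PS was lower than IF (-3.74, adjusted p = 0.000183). In MECs and fibroblasts it had been higher in both lines.

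Higher member 6 showed the same order. Its IF adipocytes were at 109, 145 and 146 CPM, and the other 9 libraries were between 51.8 and 66.8 CPM (1.27 ± 0.09 in IF, edgeR adjusted p = 4.76e-06). PS adipocytes, at 51.8 to 62.7 CPM, overlapped the controls. Lower member 5 turned its direction in IF: 12.1, 12.2 and 20.8 CPM, against 3.84 to 7.63 in IFPS and 4.15 to 6.79 in wildtype, with PS at 3.08, 3.32 and 3.66 (1.49 ± 0.23 in IF, adjusted p = 0.000296). PS lay below all controls and IF above them, and the test of PS against IF gave -2.13 (adjusted p = 0.000222). Lower member 12 was also called higher in IF (0.50). In all, 12 of 36 members were called between PS and IF adipocytes, where 24.8% of all genes were higher and 27.9% lower in PS.

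Taking IF and PS adipocytes together, 2 of 12 higher members lay above all wildtype and IFPS libraries, against 0.501% of the 12376 genes with a mean of at least 1 CPM in adipocytes, and 3 of 24 lower members lay below them, against 2.44%. The 2 were ENSRNOG00000012067 and higher member 5, and the 3 were lower members 7, 9 and 22. ENSRNOG00000012067 reached that mean through its IF and PS libraries, ENSRNOG00000006365 through its PS libraries alone and higher member 4 through its IF libraries. These genes thus had to differ to be counted. The counts, those of PS alone and IF alone included, are a description. PS alone gave 4 of 12 (2.45% of genes) and 7 of 24 (6.44%), and IF alone 4 of 12 (18.3%) and 6 of 24 (27.8%). Higher member 5 was at 4.86, 4.91 and 7.54 CPM in IF, 5.17, 5.96 and 6.90 in PS, and 2.75 to 4.35 CPM in the 6 controls. It was called in IF (0.81, edgeR adjusted p = 0.00642) and missed the threshold in PS (adjusted p = 0.177).

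The 2 groups that served as controls in adipocytes were also compared with each other. Between IFPS and wildtype edgeR called 0 of 14304 genes (0% higher and lower), with 927 at an unadjusted p under 0.05, and DESeq2 called 219. The edgeR test called 0 of 36 members, 3 of them at an unadjusted p under 0.05, and DESeq2 called 0. ENSRNOG00000012067 was at less than 1 CPM in all 6 control libraries.

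**Figure D2:**
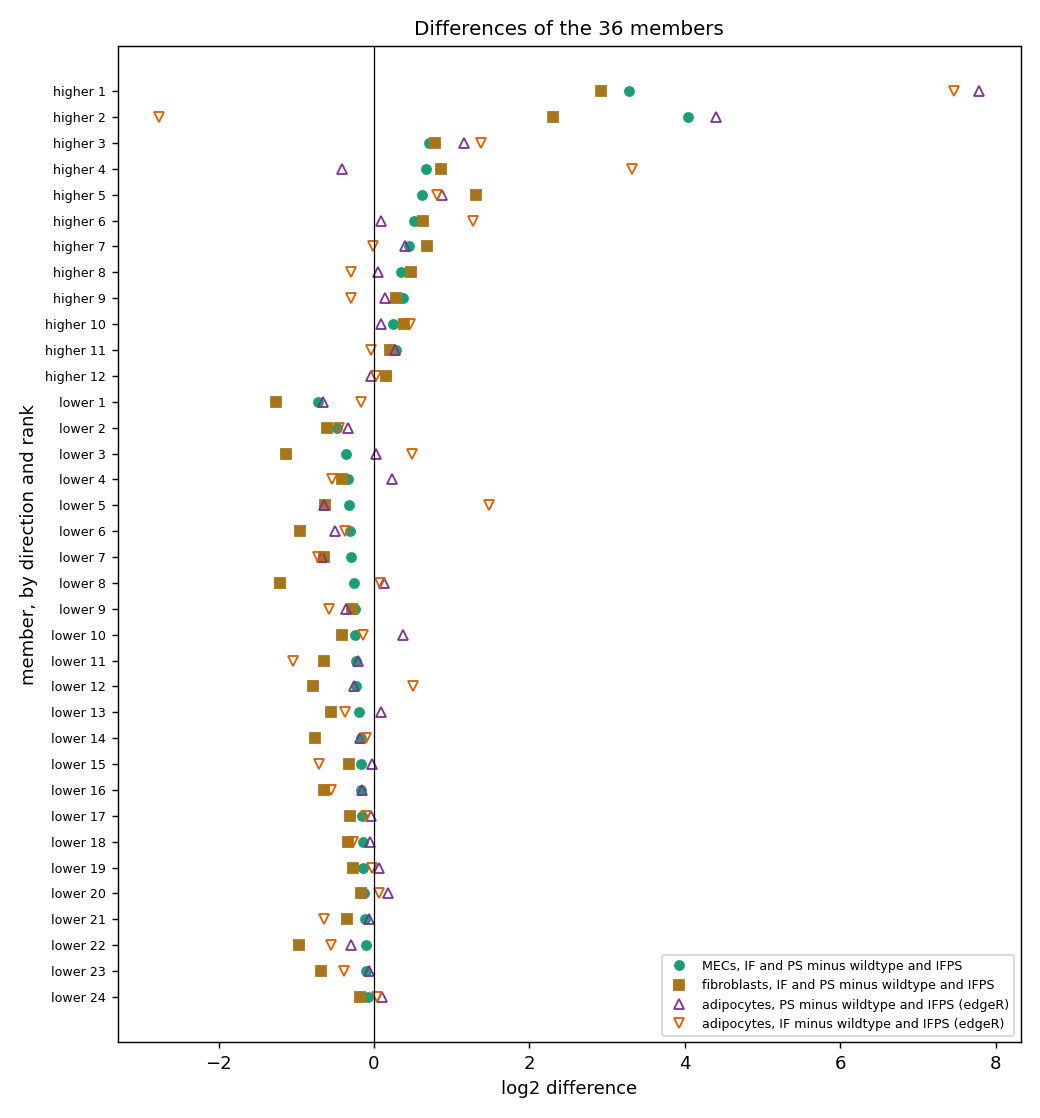
Difference of each of the 36 members (vertical axis, by direction and number) in log2 units (horizontal axis); filled symbols are MECs and fibroblasts, IF and PS minus wildtype and IFPS, which chose the genes, and open triangles are the edgeR estimates in PS and IF adipocytes. The first higher gene lies at 7.79 and 7.47 in PS and IF adipocytes, and the second at 4.4 and -2.76.

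Whole pads hold epithelium, stroma and fat together, so fewer cells of a type and less RNA per cell cannot be told apart there. In the first set of pads, numbered 1 to 12, both leading higher genes separated the lines as they had in cultured cells. ENSRNOG00000012067 was at 12.4, 18.3 and 16.2 CPM in wildtype pads, 15.1, 14.1 and 18.9 in IFPS, 228, 270 and 183 in IF, and 249, 239 and 226 in PS. ENSRNOG00000006365 was at 0.0695, 0.0664 and 0.0633 CPM in wildtype, which is 2 counts in each library, 0.176, 0.112 and 0.298 in IFPS, 12.1, 24.7 and 25.9 in IF, and 12.5, 12.6 and 18.5 in PS. For both genes IF and PS lay above all wildtype and IFPS pads with no overlap.

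A test of those 12 pads alone called 2 of 36 members and 7 of 16097 genes (0.0435% higher, 0% lower). The 2 were these genes, at 3.97 ± 0.15 (SE, edgeR adjusted p = 1.20e-06) and 7.29 ± 0.32 (adjusted p = 2.89e-06). The second passed the low-count filter in these pads through its IF and PS libraries alone, so its call is a description. ENSRNOG00000058132 was at 14.7, 17.2 and 15 CPM in wildtype and 16, 20.1 and 14.8 in IFPS, against 11.3, 7.19 and 7.55 in IF and 4.18, 8.03 and 7.31 in PS. ENSRNOG00000024335 was at 31.3, 35.7 and 29.5 CPM in wildtype and 42.5, 35.3 and 24.7 in IFPS, against 23.5, 14.7 and 18.9 in IF and 15.3, 19.6 and 16.3 in PS. For both lower genes the lines did not overlap either, and both missed the threshold (-1.03, adjusted p = 0.050003, and -0.78, adjusted p = 0.0667). The median over the 24 lower members in these pads was 0.10, in the direction opposite to that of the cultured cells, and over the 12 higher members it was 0.27, beside 0.004 over all genes.

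The second set, numbered 13 to 21, did not keep this order. The 3 wildtype pads of that set had ENSRNOG00000012067 at 216, 193 and 208 CPM and ENSRNOG00000006365 at 13.2, 11.5 and 26.5 CPM, within or near the range of the IF and PS pads of the first set. The IFPS pads stayed low, at 19.2, 17.8 and 16 CPM and at 0.113, 0.420 and 0.207 CPM. The PS pads were split: they had 253, 19.7 and 624 CPM of the first gene and 0.121, 9.43 and 12.2 CPM of the second. PS pad replicate 4 was thus high for the first and low for the second gene, replicate 5 was the reverse, and replicate 6 was high for both.

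The lower genes shifted in the wildtype pads as well. ENSRNOG00000058132 was at 4.05, 5.41 and 9.03 CPM in wildtype pads of the second set, 15.7, 16.1 and 8.92 in IFPS, and 10.8, 12.2 and 4.93 in PS. ENSRNOG00000024335 was at 12.9, 12.6 and 15.6 CPM in wildtype, 26.3, 38.3 and 19.5 in IFPS, and 24.6, 34.8 and 25.1 in PS. For the second of these genes the 3 wildtype pads were below all other pads of the set.

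**Figure D3:**
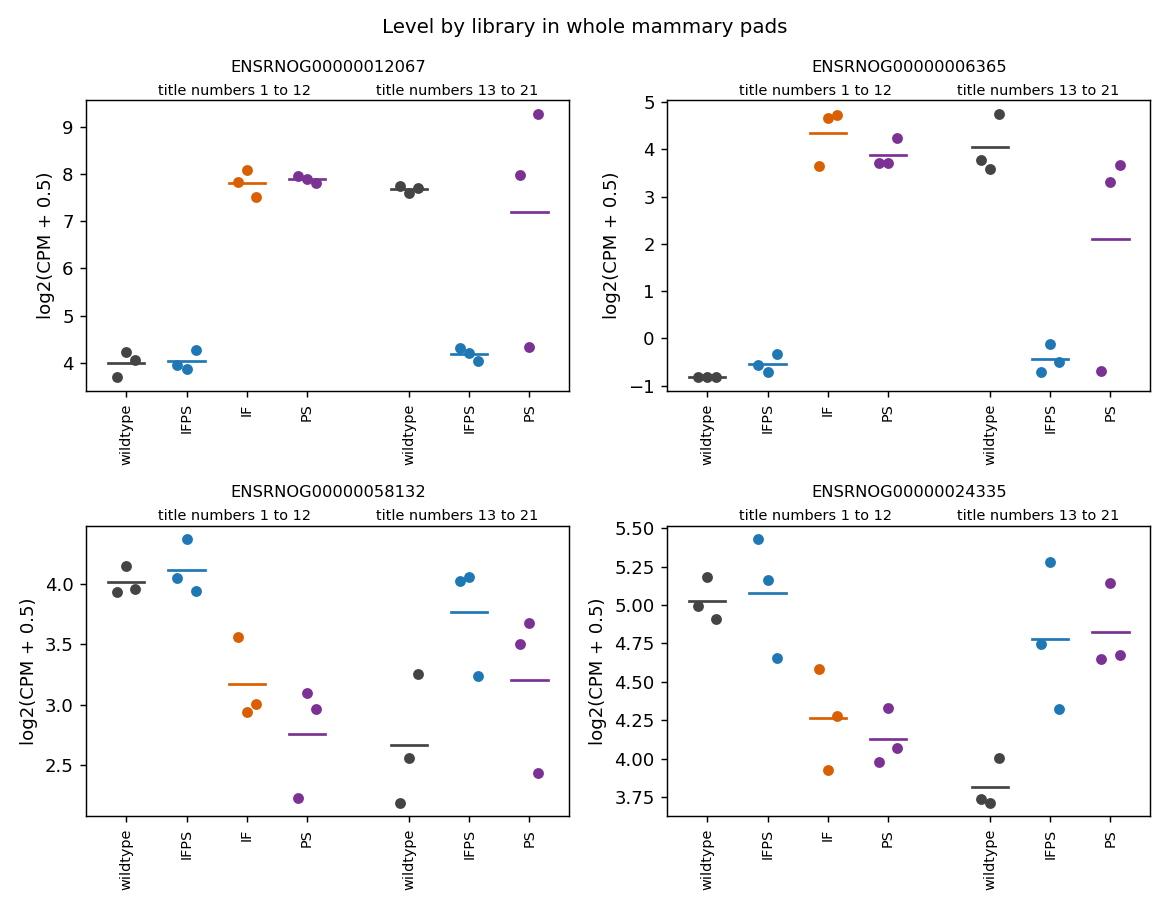
Level of the 4 printed genes in each whole mammary pad, as log2(CPM + 0.5) on the vertical axis, by line and by set of title numbers on the horizontal axis; points are libraries and bars the mean of 3. Wildtype pads numbered 13 to 21 (193 to 216 CPM of the first gene) lie near IF and PS pads numbered 1 to 12 (183 to 270 CPM), and wildtype pads numbered 1 to 12 lie with IFPS.

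Over all 21 pads, with the set as a covariate, edgeR called 0 of 16384 genes (0% higher and lower), with 720 (4.39%) at an unadjusted p under 0.05. It called 0 of 36 members, 8 of them at an unadjusted p under 0.05. The differences of the leading genes were 3.07 ± 0.58 (adjusted p = 0.317) for ENSRNOG00000012067 and 4.47 ± 1.14 (adjusted p = 0.432) for ENSRNOG00000006365. DESeq2 called 44 genes, 3 of them members, with adjusted p = 0.000125 and 0.00375 for these genes. The second set alone called 0 genes (1749 at an unadjusted p under 0.05) and gave 2.20 ± 0.74 (adjusted p = 0.390) for the first gene. Without PS pad replicate 5, which is low for that gene, edgeR called 1 member. The share of all genes called in that fit is not given here.

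The difference between the sets was itself tested, by comparisons chosen after the values had been seen. Second against first wildtype pads called 633 genes, 2.27% of all higher and 1.59% lower in the second set. Of the members 5 were called in the direction they have in IF and PS cells and 3 in the other. ENSRNOG00000012067 was higher by 4.03 ± 0.73 (edgeR adjusted p = 0.0138), ENSRNOG00000006365 by 8.17 ± 1.16 (adjusted p = 0.00296) and higher member 7 by 0.48 ± 0.12 (adjusted p = 0.0373). ENSRNOG00000058132 fell by 1.08 ± 0.28 (adjusted p = 0.0465) and ENSRNOG00000024335 fell by 0.94 ± 0.18 (adjusted p = 0.0193) on the log2 scale. Lower members 4, 10 and 19 were higher in the second set, by 0.99, 1.13 and 0.54.

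The member count rested on single pads. It was 1 without wildtype pad replicate 2, 2 without wildtype replicate 1, 3, 4 or 5, 3 without IFPS replicate 2 or PS replicate 4, and 9 without wildtype replicate 6 or IFPS replicate 6. The share of all genes called in each of these fits is not given here, so these counts have no background beside them. The call of ENSRNOG00000006365 held in all 21 of these fits, that of ENSRNOG00000012067 in 18 (not without wildtype replicate 1, 2 or 3), that of ENSRNOG00000024335 in 17 (not without wildtype replicate 1, 2, 4 or 5) and that of ENSRNOG00000058132 in 10 (not without wildtype replicates 1 to 5, IFPS replicate 1, 2 or 4, IF replicate 3 or PS replicate 2 or 4).

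IFPS and PS pads were compared between the sets in the same way. Between sets of IFPS pads edgeR called 26 genes (0.0488% higher, 0.11% lower) and 0 members, and DESeq2 called 0 members. By edgeR 2 of 36 members were at an unadjusted p under 0.05, where 8.97% of all genes were. Between sets of PS pads edgeR called 165 genes (0.232% higher, 0.775% lower) and 0 members, and DESeq2 called 1 member. By edgeR 5 of 36 members were at an unadjusted p under 0.05, where 20.2% of all genes were. The change from wildtype to PS differed between the sets for 7.2% of genes in the higher and 5.8% in the lower direction, and for 12 of 36 members. Second set minus first, that change differed by -3.71 ± 0.94 for ENSRNOG00000012067 (adjusted p = 0.0346) and by -9.24 ± 1.39 for ENSRNOG00000006365 (adjusted p = 0.0181). For ENSRNOG00000006365 the PS mean was above wildtype in the first set (14.6 against 0.0664 CPM). In the second set it was below wildtype (7.25 against 17.1 CPM), with overlapping libraries.

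Tumors of the lines were compared without wildtype, since all tumor libraries came from mutated lines. Of 36 members 1 was called in its own direction and 1 in the opposite one, where 2.32% of 15966 genes were higher and 5.96% lower in the mean of IF and PS than in IFPS. None of the 4 printed genes was called. The medians were -0.06 over the higher and -0.17 over the lower members, beside -0.05 over all genes.

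ENSRNOG00000012067 fell into separate levels within lines. In IF tumors it was at 228, 145, 258, 258 and 193 CPM, high in all 5. In IFPS tumors it ran from 2.30 to 313 CPM with a median of 18.9, and 3 of 9 were above 100 CPM and 6 below 30. In PS tumors it ran from 6.61 to 647 CPM with a median of 190, and 5 of 9 were above 100 CPM and 4 below 30. The difference between lines was 1.18 ± 0.82 (edgeR adjusted p = 0.389). Across all 44 pads and tumors, 24 libraries were above 100 CPM, 20 were below 30, and 0 lay between 25.3 and 145 CPM. These limits were set after the values had been seen.

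ENSRNOG00000006365 was split in every line of tumors. In IF tumors it was at 7.66, 3.50, 0.238, 10.5 and 0.0552 CPM. In IFPS tumors it ran from 0 to 8.51 CPM with a median of 3.35, and in PS tumors from 0 to 9.34 CPM with a median of 0.256. The lines overlapped, and the difference was -0.09 (adjusted p = 0.972). The sign changed without IFPS tumor replicate 1, 8 or 9 or IF replicate 3 or 5 (up to 0.20), and IF tumors alone gave 0.61 (adjusted p = 0.831).

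**Figure D4:**
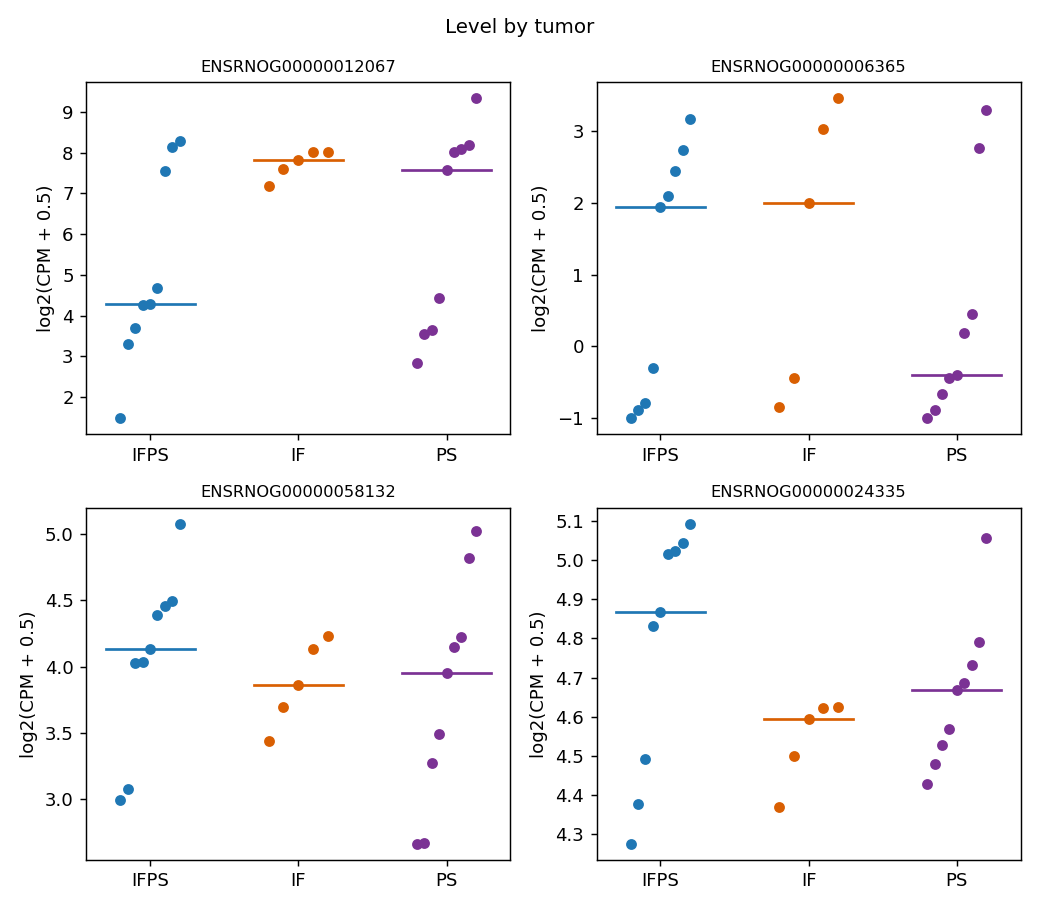
Level of the 4 printed genes in each tumor, as log2(CPM + 0.5) on the vertical axis, by line on the horizontal axis; points are tumors and bars the median. The first gene is high in all 5 IF tumors (145 to 258 CPM) and falls into a high and a low level in IFPS and PS tumors.

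The 2 leading higher genes did not keep company in tumors. Counting over 100 CPM of the first gene and over 3 CPM of the second as high, limits also set after the values had been seen, 10 of 21 pads were high for both, 9 low for both, 1 high for the first alone and 1 for the second alone. Of 23 tumors 4 were high for both, 4 low for both, 9 high for the first alone and 6 for the second alone. In PS tumors 0 of 9 were high for both, 5 for the first alone and 2 for the second alone. In IF tumors 3 of 5 were high for both and 2 for the first alone. In IFPS tumors the 4 classes held 1, 2, 2 and 4 tumors, for both, neither, the first alone and the second alone. The second gene had no value between 0.870 and 3.35 CPM in any pad or tumor. Because libraries fell into separate clusters, no correlation is given.

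**Figure D5:**
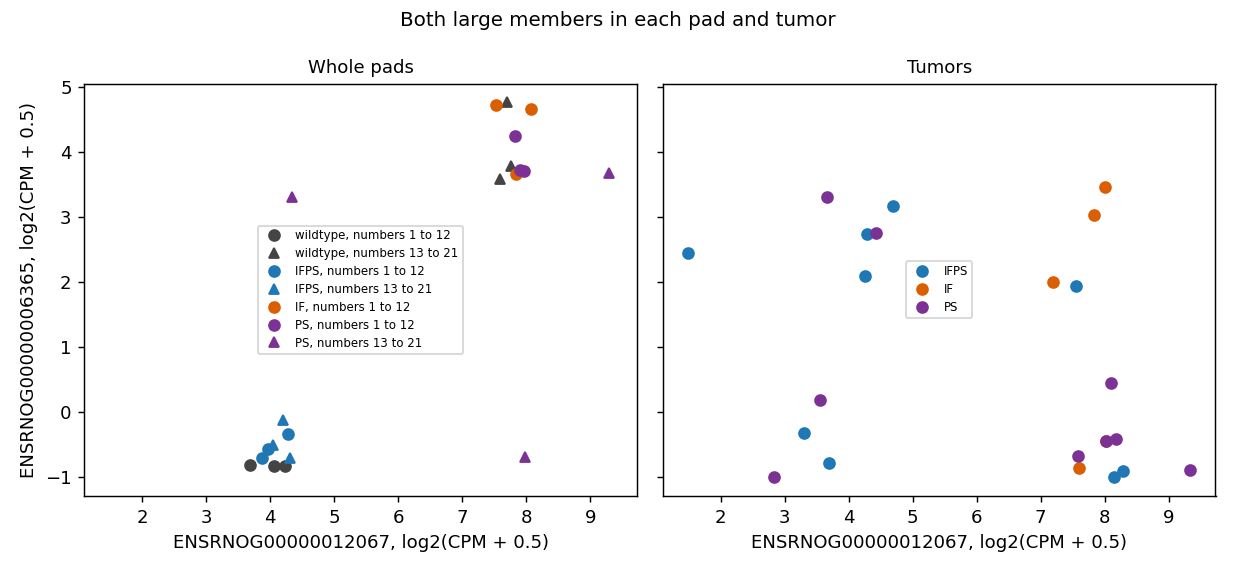
Level of both leading higher genes in each pad (left) and tumor (right), the first gene on the horizontal and the second on the vertical axis, both as log2(CPM + 0.5); symbols and colors mark line and set of title numbers. Pads lie in the lower left or upper right apart from 2 PS pads, and tumors lie in all 4 corners (4, 4, 9 and 6).

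The lower genes of tumors spread within lines. ENSRNOG00000058132 ranged from 10.3 to 18.3 CPM in IF (median 14), from 7.46 to 33.2 in IFPS (median 17) and from 5.84 to 32.0 in PS (median 14.9). ENSRNOG00000024335 ranged from 20.2 to 24.2 CPM in IF (median 23.6), from 18.9 to 33.6 in IFPS (median 28.7) and from 21 to 32.8 in PS (median 24.9). For both genes the lines overlapped, with differences of -0.22 (edgeR adjusted p = 0.644) and -0.20 (adjusted p = 0.188).

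The 2 members called in tumors were both lower genes. Lower member 10 was at 11.8 to 49.1 CPM in IF (median 34.7), 21 to 51.4 in PS (median 35.7) and 32.3 to 107 in IFPS (median 61.0). Its difference of -0.97 ± 0.25 (edgeR adjusted p = 0.0302) had the direction of the cultured cells, though the lines overlapped. Lower member 4 was at 269 to 956 CPM in IF (median 405), above all IFPS tumors, at 54.3 to 225 (median 98.4), and all PS tumors, at 68.0 to 194 (median 132). Its difference of 1.24 ± 0.26 (adjusted p = 0.0211) was opposite to that of cultured cells. IF tumors alone gave 2.31 (adjusted p = 0.000332) and PS tumors alone 0.16 (adjusted p = 0.775) against the same IFPS tumors.

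The count of members called in their own direction in tumors was 0 without IF tumor replicate 3, 4 or 5 or IFPS replicate 6 or 9. It was 3 without IFPS replicate 4 or 7 or with DESeq2. The share of all genes called in those fits is not given here. PS tumors alone called 0 genes (3537 at an unadjusted p under 0.05) and 0 members, 7 of them at an unadjusted p under 0.05, and IF tumors alone called 678 genes (2.81% higher, 1.43% lower) and 0 members in their own direction.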

How the data were processed

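The authors deposited unnormalized counts per Ensembl rat gene identifier. Per the labels' protocols, mRNA libraries were read at both ends for 50 bp. The submitters' processing notes name Trim Galore, STAR 2.5.2b and the build Rnor_6.0. The counting step, the annotation and any use of strand are not given in the sources used here, so genes sharing reads with a copy, an overlapping or an antisense gene are uncertain. Libraries were grouped by their tissue and line labels, and columns matched by title.

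CPM was computed as count per column total, and log2 values used CPM + 0.5. Tests used edgeR 4.0.16 (quasi-likelihood, TMM, filterByExpr) in R 4.3.3 on the counts, with one fit per tissue, Benjamini-Hochberg adjustment over all genes tested and a threshold of 0.05. All 36 members passed the low-count filter in every fit. ENSRNOG00000006365 passed it in adipocytes through its PS libraries alone. In the fit of pads numbered 1 to 12 it passed through IF and PS libraries alone. It had to be high in those lines to be tested there, so its calls in these fits are a description. Standard errors were taken from the fold change and its F statistic. The comparisons with wildtype and IFPS share those libraries. In simulated counts with 200 changed genes, edgeR recovered 63% of 2-fold and 84% of 4-fold changes for PS adipocytes (14112 genes), 76% and 91% for pads (16229 genes) and 55% and 78% for tumors (15851 genes), with 2% to 5.11% of its calls on unchanged genes. Apart from the changed genes, the simulated counts held no difference in mean between lines or sets of pads. The measured libraries did, so these shares need not hold for them.

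The members, lists and tests were chosen with earlier results of these data known. The rule for named genes asked for symbols. With 0 identifiers matched, the 2 highest ranked identifiers of each direction were printed, other members go by number, and those described beyond the calls were chosen after their values were seen. Marker and pathway lists were not analysed here for the same reason. Alternatives were RLE size factors, no low-count filter, DESeq2 1.42.0, pads without the set covariate or by set, tumors by line, other CPM limits, TMM-scaled CPM and leaving out each library.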

Additional observations from a re-analysis of the deposited data

Results flagged for a closer look

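One PS tumor, replicate 9, was far from the others of its group for ENSRNOG00000012067, at 646.6 CPM against 289.7 CPM in the next highest of the 9. The gap was 0.5577 of the whole range. By this measure chance picks out about 1 in 20 groups whose values follow a single normal distribution, and 24 groups of the 4 printed genes were examined. PS tumors fell into separate levels of this gene, so that rate need not hold for them.

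The change from wildtype to PS pads differed between the second and the first set of title numbers for all 4 printed genes, by the interaction term of the edgeR fit, a test chosen after the values had been seen. Second minus first, it was -3.712 ± 0.94 (adjusted p = 0.0346) for ENSRNOG00000012067, -9.238 ± 1.39 (adjusted p = 0.0181) for ENSRNOG00000006365, 1.518 ± 0.40 (adjusted p = 0.0351) for ENSRNOG00000058132 and 1.583 ± 0.26 (adjusted p = 0.0208) for ENSRNOG00000024335. Of 21 fits that each left out 1 pad, the call held in 13, 17, 12 and 14, in the same order. The losses came without wildtype pad replicate 1, 2, 3, 4 or 5 or PS pad replicate 1, 3, 4 or 5.

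ENSRNOG00000006365 differed between PS and IF adipocytes, by 7.162 ± 0.82 (adjusted p = 9.62e-05), on 336 against 2 counts. Both lines were high for it in MECs and fibroblasts. In adipocytes it passed the low-count filter through its PS libraries alone, so it had to be high in PS to be tested. Its call there is a description.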

How the results depend on the processing

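No paired analysis was possible because the groups compared within a tissue share no title number. With RLE size factors every count of members called was equal to the reported count or within a factor of 1.5 of it. Every call of a printed gene kept its side of the threshold. DESeq2 called 5 members in PS adipocytes, 3 in pads, 9 between the sets of wildtype pads and 3 in tumors. Apart from pads, the share of all genes that DESeq2 called is not given here. Those counts thus have no background beside them. In simulated counts 15.5% to 20.2% of its calls were unchanged genes. Without the low-count filter 3 members were called between the sets of wildtype pads, again with no share of all genes beside them. Pads numbered 1 to 12 alone gave 2 members, and PS or IF tumors alone gave 0 in their own direction, with 1 opposite in IF tumors (lower member 4). ENSRNOG00000024335 changed sign in pads numbered 13 to 21 (0.35) and ENSRNOG00000006365 in IF tumors alone (0.61).

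Leaving out each library in turn gave 1 to 4 members in PS adipocytes, 14 to 17 in IF adipocytes, 0 to 1 in pads, 1 to 9 between the sets of wildtype pads, 0 to 3 in tumors, and 37 to 73 genes meeting the rule. For the members called, the share of all genes called in each fit is not given here. A mean of at least 5 CPM left 33 genes, and no limit 41. ENSRNOG00000006365 ranged from -0.55 to 0.20 in tumors, and ENSRNOG00000024335 from -0.068 to 0.22 between PS and IF adipocytes, with the negative value without IF adipocyte replicate 2. The causes were not tested. ENSRNOG00000006365 had 0 to 18 counts in each wildtype, IFPS and IF adipocyte library, so its differences between those lines rest on few counts.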

Other observations

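In the order of the deposited table, whose meaning is not stated, lower member 1, lower member 4 and higher member 1 stood at 3382, 3430 and 3513 of 32883. Higher member 4 and lower member 12, which move in opposite directions, stood at 12296 and 12298. Whether these places reflect positions in the genome was not tested.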
